A study of Mus musculus with 72 samples.

Results

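Gene expression was compared between the ventral hippocampus of male mice labelled C57BL/6J, taken 30 min after a cue presented alone, and that of male mice labelled C57BL/6J and taken from the home cage. Members were the 6 libraries labelled as cue and the 6 labelled as home cage of this region and substrain, 12 of the 72 libraries of the study. The remaining libraries came from the dorsal hippocampus, from mice labelled with the substrain C57BL/6NJ, or from mice labelled as given shock and cue, and the cue group used here is labelled with the cue alone. No group of the study was handled without a cue, so effects of the cue and of being moved and handled cannot be told apart. The labels give neither the kind of cue nor the age of the mice, and no transgene or drug. They do not say whether each library came from a separate mouse, so the p-values measure the spread between these libraries.

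The hippocampus encodes context and episodes, and its ventral pole is known for its links with the amygdala, hypothalamus and prefrontal cortex and for its part in anxiety and stress responses. When hippocampal neurons fire, calcium entry activates kinases that phosphorylate factors already bound to DNA, among them CREB and serum response factor. Within minutes these factors switch on immediate early genes, many of which encode transcription factors of the AP-1, Egr and Nr4a families, while others act at the synapse. Genes that feed back on the same kinases follow. Exposure to a new place also raises circulating glucocorticoids, which act through their own receptor on a separate set of genes.

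The 12 libraries held 30330382 to 56258370 gene counts, and counts are given as CPM, counts scaled to a common library size with the trimmed mean of M values. Genes of the mitochondrial genome took 6.15% to 7.36% of the counts in cue libraries and 7.33% to 9.34% in home cage libraries. The 12 library codes fell apart by Lcn2, an acute-phase protein gene, which exceeded 2 CPM in both regions of 4 cue codes (32A, 32B, 34A and 34C) and 2 home cage codes (35A and 35B). The results below are therefore also given for the 2 sets of codes separately: 4 cue and 2 home cage libraries with high Lcn2, and 2 cue and 4 home cage libraries with low Lcn2. Single libraries of these sets also stood apart in cell type markers, given below, and what this adds to the split values was not tested. The tissue label was checked with markers: 6 markers of the ventral pole summed to 158 to 286 CPM in these cue libraries and 118 to 280 CPM in these home cage libraries, against 38.8 to 144 and 35.5 to 75.7 CPM in the dorsal cue and home cage libraries of the same codes, ranges that overlap at their ends. The substrain markers went against the labels: Nnt, which is partly deleted in C57BL/6J, was at 34.1 to 39.4 CPM in the 18 ventral libraries labelled 6J and 18.1 to 21.6 CPM in the 18 labelled 6NJ. Gabra2, whose messenger is known to be reduced in C57BL/6J, was likewise at 255.1 to 332.3 CPM under the label 6J and 107.3 to 158.7 CPM under 6NJ. "6J" and "6NJ" are the labels throughout.

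Across the transcriptome, 2518 of 19597 genes tested differed between cue and home cage (edgeR quasi-likelihood F-test, Benjamini-Hochberg adjusted p under 0.05, the rule for every gene called higher or lower here). Of the genes tested, 7.78% (1524) were called higher and 5.07% (994) lower. Most differences were small. Among genes called higher the median log2 fold change was 0.22 and 173 exceeded 0.5, and among genes called lower the median was -0.25 and 184 fell by more than 0.5. Every cue library was above every home cage library in 610 genes (3.11% of those tested) and below every home cage library in 404 genes (2.06%). The number of calls rested on which libraries were used: it was 1394 without the cue library of code 32B and 1433 without the home cage library of code 36A. Of the 1394, 864 were higher and 530 lower, so calls were lost without code 32B across all genes. With the low-Lcn2 codes alone, 47 of 20437 genes were called (0.23%), all of them higher and all among the 2518. With the high-Lcn2 codes alone, 956 of 20332 were called (4.7%), 529 higher and 427 lower, and 699 of them were among the 2518. Of the called genes, 1520 of the 1524 higher and 989 of the 994 lower had the same sign in both sets of codes. These genes were called over the same 12 libraries that make up the 2 sets. A shared sign was therefore favoured by the selection and is not a separate test.

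Immediate early genes had the largest rises. Of 43 rapid immediate early genes tested, 28 were called higher and 0 lower, where 7.78% of all genes were called higher. Their median log2 fold change was 0.33, beside -0.0035 for all genes tested. In the low-Lcn2 codes alone, where 0.23% of all genes were called, the median was 0.36 with 14 called higher. In the high-Lcn2 codes, where 4.7% were called in either direction, it was 0.51 with 21 called higher. These 2 counts cannot be compared, because the fits called unlike shares of all genes. In 18 of the 43, every cue library lay above every home cage library, beside 3.11% of all genes tested.

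Egr factors are zinc finger proteins that bind GC-rich sites, and Egr2 had the largest rise of the genes named here. Egr2 measured 7.01, 8.18, 7.24, 7.07, 7.4 and 7.7 CPM in the cue libraries, against 1.35, 1.08, 1.23, 1.49, 0.666 and 0.484 CPM in the home cage libraries. The groups were far apart, with a log2 fold change of 2.83 ± 0.14 (SE, adjusted p = 4.69e-17 in edgeR's quasi-likelihood test), and the cue libraries varied little (7.43 ± 0.442 CPM, SD, n = 6, against 1.05 ± 0.395 CPM in the home cage). Egr4 rose to 23.3 ± 1.34 CPM in cue libraries, against 12.3 ± 1.83 CPM in home cage libraries (0.92 ± 0.088 SE, adjusted p = 2.86e-09). Egr1, the member most often used as an activity marker, was abundant in the home cage and measured 124 ± 11.9 CPM after the cue, against 75.7 ± 10.5 CPM (0.71 ± 0.091 SE, adjusted p = 3.19e-06). Egr3 had the smallest rise of the family at 0.30 ± 0.068, and its libraries overlapped. Of the corepressors that bind Egr factors, Nab2 rose by 0.18 ± 0.060, a call lost without the cue library of code 32B (adjusted p = 0.0967), and Nab1 did not pass (0.065 ± 0.049, adjusted p = 0.398).

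AP-1 is a dimer of Fos and Jun family proteins, and 7 of its 9 genes tested were called higher, beside 7.78% of all genes. Fos measured 26.6, 33.5, 27.2, 33.1, 27.1 and 25.4 CPM in the cue libraries, against 4.75, 5, 8.21, 4.44, 5.97 and 5.7 CPM in the home cage libraries. The lowest cue library was well above the highest home cage library (log2 fold change 2.33 ± 0.17 SE, adjusted p = 1.6e-11). Fosb, a close relative of Fos, rose to 15.2 ± 1.75 CPM, against 5.69 ± 0.333 CPM in the home cage (1.42 ± 0.087 SE, adjusted p = 1.07e-14). Junb, a dimer partner of Fos proteins, measured 56.9 ± 5.35 CPM in cue libraries and 30.7 ± 2.17 CPM in home cage libraries (0.89 ± 0.065 SE, adjusted p = 1.2e-12). Fosl2 (0.55 ± 0.085), the small Maf factor gene Maff (0.78 ± 0.22) and the stress-inducible Atf3 (1.07 ± 0.22) also rose, and Jun itself rose by 0.21 ± 0.069. Without the cue library of code 32B the list had 5 called, and Maff and Jun were lost (adjusted p = 0.0774 and 0.193). Over all genes that fit called 864 higher, against 1524 with that library. Jund had a log2 fold change of -0.23 ± 0.084 and did not pass (adjusted p = 0.0619).

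**Figure D1:**
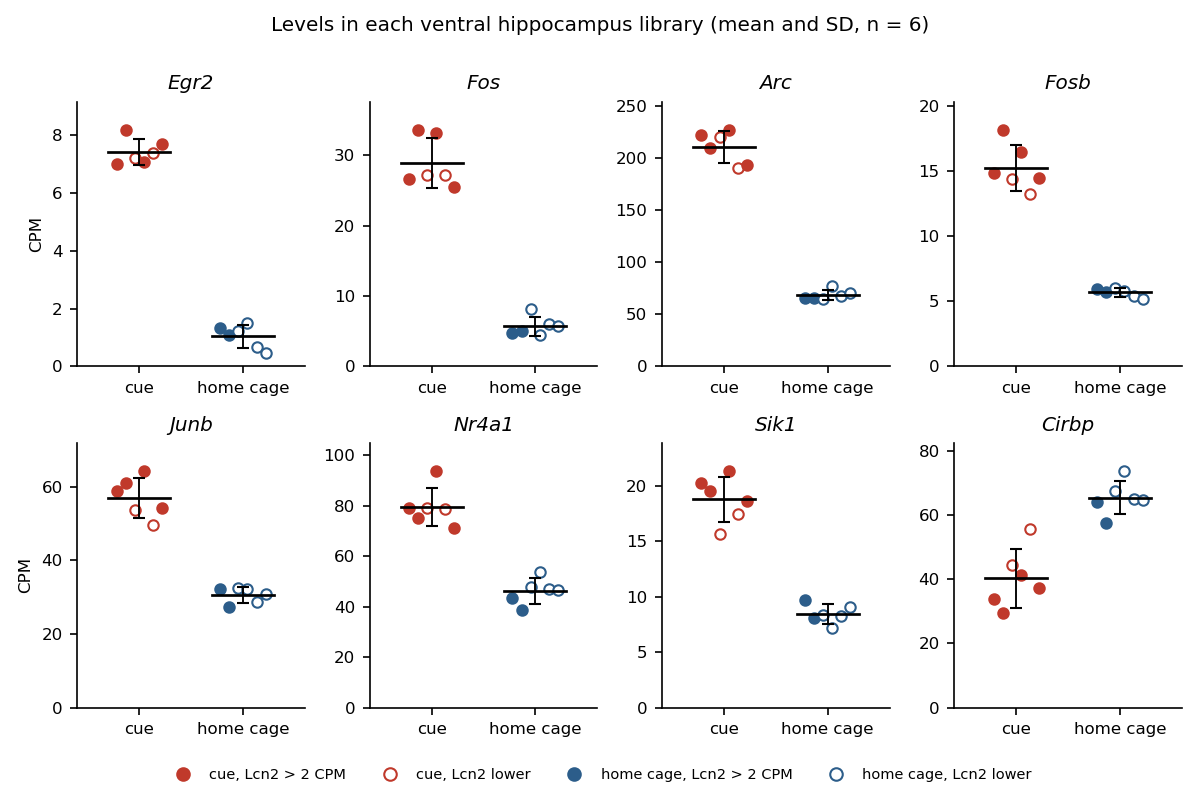
Each panel plots one gene in CPM (vertical axis, from 0) in the 6 cue and the 6 home cage libraries; filled points are libraries whose code had Lcn2 above 2 CPM, bars are the mean and the SD. For Egr2, Fos, Arc, Fosb, Junb, Nr4a1 and Sik1 all cue points lie above all home cage points, and for Cirbp all lie below.

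The other rapid genes included effectors as well as transcription factors, with 16 of 28 called higher, beside 7.78% of all genes. Arc, which encodes a synaptic protein that promotes removal of AMPA receptors, measured 223, 209.9, 221, 227, 191 and 193 CPM in the cue libraries, against 65.8, 65.8, 64.8, 77.4, 67.4 and 70.8 CPM in the home cage libraries. That is a log2 fold change of 1.62 ± 0.082 (SE, adjusted p = 1.44e-16), with no overlap. Sik1, a kinase that restrains CREB coactivators, rose by 1.15 ± 0.087 to 18.8 ± 2.04 CPM, against 8.46 ± 0.877 CPM in the home cage. The orphan nuclear receptor genes Nr4a1 (0.78 ± 0.067) and Nr4a3 (0.41 ± 0.066) rose. Ccn1, a matricellular protein gene, rose by 1.06 ± 0.13, the antiproliferative gene Btg2 by 0.67 ± 0.11, the small GTPase gene Gem by 0.78 ± 0.14, Ier2 by 0.49 ± 0.11 and Gadd45b, linked to DNA demethylation, by 0.51 ± 0.084, all without overlap. Npas4, an activity-induced transcription factor of neurons, did not pass (0.063 ± 0.14): it measured 15.8, 15.8, 14.7, 20.9, 16.1 and 16.2 CPM in the cue libraries and 12.2, 10.8, 24, 16.2, 15.8 and 16 CPM in the home cage libraries. Its home cage libraries spanned the whole cue range.

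The DNA ahead of these genes is shown because they moved together. Promoter sequences from RefSeq (GRCm38.p6, 250 bases before to 50 bases after the start) were found for 20 of the 28 rapid genes called higher and for 12823 of all genes tested. None was found for Arc, Sik1, Gem, Egr1, Ier2, Trib1, Egr3 and Klf10. Sequence outside this window was not searched, so an element not found here may lie elsewhere. The core of the cAMP response element, TGACG on either strand, was present in 15 of the 20 (75.0%), in 20 of 34 rapid genes tested (58.8%) and in 32.7% of all genes with a promoter. The full element TGACGTCA, which contains the core on both strands, was present in 2 of the 20 (10%) against 3.29% of all, and the Egr element GCGNGGGCG in 7 (35.0%) against 11.5%. TATAAA was found in 4 of the 20 (20%) against 9.44%, and the CArG box of serum response factor in 1 (5%, that of Egr2) against 1.58%. Genes with several windows counted once if any window matched, and a match of letters is not evidence of binding. The 250 bases before the start of 5 of them follow on the strand of the gene, with the core elements in capitals; Fos has its elements 129 and 66 bases before the start, Nr4a1 has 4, and in Btg2 the capitals form the full element.
Fos (chr12:85473640-85473889, plus strand): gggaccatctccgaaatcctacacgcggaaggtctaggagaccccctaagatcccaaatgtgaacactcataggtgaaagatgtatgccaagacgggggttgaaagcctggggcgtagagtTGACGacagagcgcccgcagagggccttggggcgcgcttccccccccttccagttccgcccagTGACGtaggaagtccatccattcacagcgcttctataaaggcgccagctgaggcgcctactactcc
Fosb (chr7:19310046-19310295, minus strand): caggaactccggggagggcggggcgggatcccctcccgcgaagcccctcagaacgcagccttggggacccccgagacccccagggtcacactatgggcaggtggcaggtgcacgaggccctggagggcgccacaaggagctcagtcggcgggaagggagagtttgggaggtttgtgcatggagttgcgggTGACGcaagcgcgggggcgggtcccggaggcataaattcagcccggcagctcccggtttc
Junb (chr8:84978749-84978998, minus strand): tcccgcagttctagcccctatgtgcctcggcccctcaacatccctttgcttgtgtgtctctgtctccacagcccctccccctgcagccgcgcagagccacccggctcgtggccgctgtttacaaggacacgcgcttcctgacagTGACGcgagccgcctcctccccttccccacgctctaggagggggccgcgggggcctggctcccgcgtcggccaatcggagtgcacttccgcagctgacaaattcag
Nr4a1 (chr15:101266596-101266845, plus strand): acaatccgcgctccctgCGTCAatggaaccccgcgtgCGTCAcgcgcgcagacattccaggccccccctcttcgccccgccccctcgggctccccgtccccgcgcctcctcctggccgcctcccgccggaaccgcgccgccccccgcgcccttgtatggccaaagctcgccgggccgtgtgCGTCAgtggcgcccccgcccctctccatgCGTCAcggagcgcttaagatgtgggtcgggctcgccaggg
Btg2 (chr1:134079156-134079405, minus strand): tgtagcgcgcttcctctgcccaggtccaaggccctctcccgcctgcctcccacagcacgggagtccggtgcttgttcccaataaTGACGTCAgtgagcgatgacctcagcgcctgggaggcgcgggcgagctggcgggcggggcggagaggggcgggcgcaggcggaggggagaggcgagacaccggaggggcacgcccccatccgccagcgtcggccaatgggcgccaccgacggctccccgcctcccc

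One gene with a large rise holds microRNA genes, and it falls outside the naming rule and was picked after its values were seen. The noncoding gene 1700016P03Rik (chr11:75172560-75177633, plus strand) measured 7.48, 6.64, 5.47, 8.41, 7.67 and 5.93 CPM in the cue libraries, against 1.79, 2.01, 1.73, 1.97, 2.05 and 3 CPM in the home cage libraries. Its groups did not overlap (log2 fold change 1.73 ± 0.14 SE, adjusted p = 1.83e-11). The log2 fold change was 1.59 in the low-Lcn2 codes and 1.9 in the high-Lcn2 codes. Within it lie the microRNAs miR-132 and miR-212, a pair with known CREB-dependent, activity-induced transcription in neurons, and Ovca2 overlaps it on the opposite strand. The libraries measured the host transcript and not the mature microRNAs, whose RefSeq sequences are given with the seed (bases 2 to 8) in capitals; both 3p arms share it.
mmu-miR-132-3p (chr11:75173723-75173744, plus strand): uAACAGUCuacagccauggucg
mmu-miR-212-3p (chr11:75173443-75173464, plus strand): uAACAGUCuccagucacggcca

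Of 24 later activity-induced genes tested, 10 were called higher and 0 lower, with a median of 0.18, beside 7.78% higher over all genes. Tiparp, which encodes a mono-ADP-ribosyltransferase, measured 24.2, 23.9, 23.8, 24.9, 24 and 23 CPM in the cue libraries, against 12.7, 14.1, 13.5, 14.1, 13.1 and 14.8 CPM in the home cage libraries. The difference was many times the spread within either group (0.81 ± 0.055 SE, adjusted p = 1.9e-13). The small GTPase genes Arl5b (0.62 ± 0.063) and Arl4d (0.82 ± 0.17), Inhba, which encodes the activin A subunit (0.68 ± 0.18), and the prohormone convertase gene Pcsk1 (0.38 ± 0.12) rose; the calls of Inhba and Pcsk1 were lost without the cue library of code 32B (adjusted p = 0.0519 for each). Among 17 genes of activin and TGF-beta signalling 4 were called higher: besides Inhba these were the receptor Acvr1c (0.27 ± 0.072), the pseudoreceptor Bambi (0.36 ± 0.094) and the Smad corepressor Skil (0.28 ± 0.082). Without code 32B, where 864 of all genes were called higher, 2 of this list were, Skil being lost as well as Inhba (adjusted p = 0.0507). In the low-Lcn2 codes, where 0.23% of all genes were called, 0 of this list were, a count that carries little information at that share. The median of the list was 0.27 in the low-Lcn2 codes, 0.11 in the high-Lcn2 codes and 0.16 over all 12 libraries. Bdnf, a neurotrophin with activity-dependent promoters, measured 29.1, 31.7, 36.4, 34.2, 38 and 30.4 CPM after the cue and 26.7, 29.8, 32, 33.6, 33.7 and 34 CPM in the home cage, and did not pass (0.074 ± 0.082, adjusted p = 0.585). The pentraxin gene Nptx2 did not pass either (0.21 ± 0.11).

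Homer1, which encodes a scaffold linking metabotropic glutamate receptors to calcium stores, rose by 0.52 ± 0.056 (adjusted p = 3.27e-08) as a gene, and its transcripts differed. The gene is known to give a short protein form that is induced by activity and competes with long, constitutive forms. The transcripts below were not assigned to either form, and the length of a transcript is not that of its protein. Of 55754 transcripts tested with estimated counts, 1334 were called (2.39%), and 2 of 6 Homer1 transcripts were among them. Homer1-205, of 1533 bases, had 7.15, 9.92, 9.44, 10.6, 10.8 and 8.83 CPM in the cue libraries, against 0.394, 0.322, 0.475, 0, 0.15 and 0.744 CPM in the home cage libraries (4.74 ± 0.52 SE, adjusted p = 1.01e-06). Homer1-204, of 5713 bases, rose to 46.1 ± 5.94 CPM, against 22.1 ± 2.88 CPM in the home cage (1.06 ± 0.12 SE, adjusted p = 1.43e-06). Homer1-202, of 4287 bases, measured 54.3 ± 3.71 CPM after the cue and 54.9 ± 4.5 CPM in the home cage (-0.015 ± 0.066 SE). Both Arc transcripts tested were called higher, as were 1 of 2 for Fos and 1 of 4 for Fosb, and none of 7 for Bdnf or 15 for Crem. The number of transcripts called was 503 without the cue library of code 32B and 516 without the home cage library of code 36A.

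**Figure D2:**
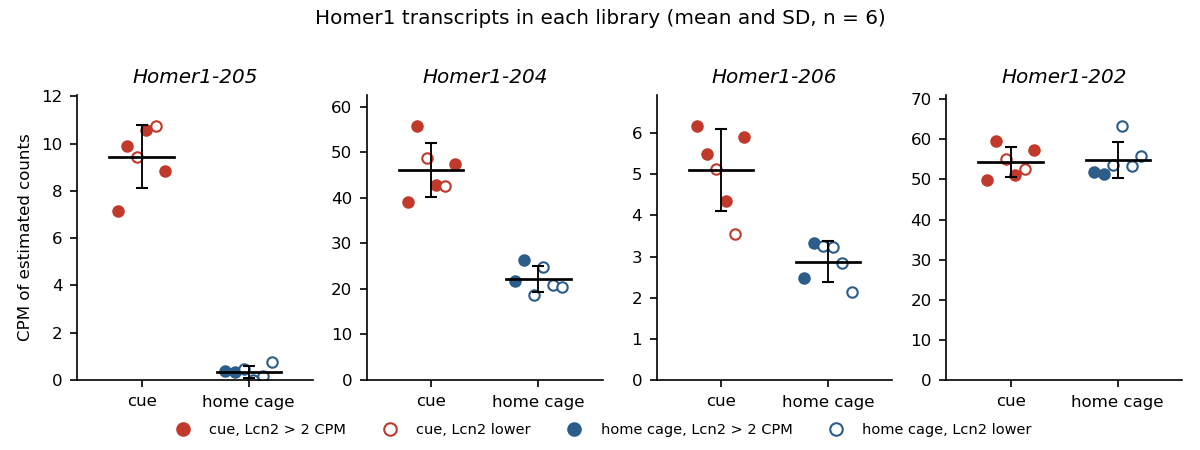
Each panel plots one Homer1 transcript in CPM of estimated counts (vertical axis, from 0) in the 6 cue and the 6 home cage libraries, with filled points for codes with Lcn2 above 2 CPM and bars for mean and SD. Homer1-205 and Homer1-204 separate the groups completely, while the groups of Homer1-202 overlap.

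Of 18 genes that feed back on MAP kinase signalling, 7 were called higher and 1 lower, beside 7.78% and 5.07% of all genes. The phosphatase genes Dusp1 (0.81 ± 0.10), Dusp5 (0.57 ± 0.067) and Dusp6 (0.56 ± 0.078), which inactivate MAP kinases, rose with no overlap between groups, as did Errfi1, an inhibitor of the EGF receptor (0.61 ± 0.062). Spry4, a Sprouty inhibitor of Ras signalling, rose by 0.37 ± 0.070, and the Ras GTPase activator gene Rasal1 fell by 0.16 on the log2 scale (SE 0.057), a call lost without the cue library of code 32B (adjusted p = 0.0857). In the CREB pathway 6 of 18 were called higher, and 3 without the cue library of code 32B (864 over all genes). Besides Sik1 they included Creb1 itself (0.23 ± 0.046), the related Crem (0.23 ± 0.058) and the phosphodiesterase genes Pde4b (0.18 ± 0.056) and Pde4d (0.34 ± 0.10), which degrade cAMP and whose calls were lost without code 32B (adjusted p = 0.114 and 0.0523).

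Stress hormone targets and clock genes changed in part, where 7.78% of all genes were called higher and 5.07% lower. Of 20 glucocorticoid targets, 8 were called higher and 0 lower (median 0.22; 0.078 in low-Lcn2 codes and 0.18 in high-Lcn2 codes). The kinase gene Sgk1 measured 82.5, 77.2, 82.8, 76.1, 59.5 and 75.8 CPM in the cue libraries, against 43.5, 52.5, 43.4, 46, 41.6 and 47.4 CPM in the home cage libraries. Its groups did not overlap (log2 fold change of Sgk1 0.72 ± 0.077 SE, adjusted p = 3.96e-08), with 0.67 in the low-Lcn2 codes and 0.70 in the high-Lcn2 codes. Ddit4, an inhibitor of mTOR, rose by 0.54 ± 0.048, and Nfkbia, the inhibitor of NF-kappa-B, by 0.36 ± 0.079. Tsc22d3, which encodes the protein GILZ, rose by 0.61 ± 0.10, with 0.24 in the low-Lcn2 codes and 0.86 in the high-Lcn2 codes. Fkbp5, a cochaperone of the glucocorticoid receptor, did not pass (0.097 ± 0.10, adjusted p = 0.56). Among 10 genes of corticotropin-releasing hormone and steroid receptors 0 passed. Of 19 clock genes 6 were called higher and 2 lower: Per1 (0.43 ± 0.054), which is also a rapid early gene, Per2 (0.27 ± 0.060) and the repressor Nfil3 (0.60 ± 0.081) were among those that rose, and Dbp and Nr1d1 fell by 0.47 (SE 0.14) and 0.20 (SE 0.058) on the log2 scale, calls lost without the cue library of code 32B (adjusted p = 0.0838 and 0.0519).

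Many chaperone genes were higher over all 12 libraries, with wide spread among the cue libraries. Of 23 genes on the list of cytosolic heat shock chaperones 15 were called higher, with a median of 0.22. Of 18 on the list of endoplasmic reticulum chaperones 12 were, with a median of 0.29. The cytosolic list also holds the mitochondrial Hspd1 and Hspe1 and the transcription factor genes Hsf1 and Hsf2. The reticulum list also holds Xbp1, Sel1l and Herpud1, which are not chaperones. Over all genes 7.78% were called higher. Without the cue library of code 32B the chaperone counts were 10 and 5. Over all genes that fit called 864 higher, against 1524 with that library. In the low-Lcn2 codes, where 0.23% of all genes were called, they were 0 and 0. Hspa5, the main chaperone of the endoplasmic reticulum, measured 307, 479, 221, 251, 178 and 261 CPM in the cue libraries, against 168, 196, 180.2, 161, 185 and 171 CPM in the home cage libraries. The cue library of code 32B stood highest and that of code 34B lay within the home cage range (log2 fold change of Hspa5 0.68 ± 0.16 SE, adjusted p = 0.00483). The secreted factor gene Manf (0.45 ± 0.13) had 63.5 CPM in code 32B and 26.9 to 45.4 CPM in the other cue libraries, against 28.1 to 30.8 CPM in the home cage, and its call was lost without code 32B (adjusted p = 0.118). Hsp90b1 (0.33 ± 0.082) and the disulfide isomerase gene Pdia4 (0.54 ± 0.13) rose, as did Xbp1, the transcription factor of the unfolded protein response (0.30 ± 0.099), which was lost without code 32B (adjusted p = 0.196). In the cytosol Dnajb1 (0.58 ± 0.091), Hsph1 (0.34 ± 0.071) and Hsp90aa1 (0.28 ± 0.064) rose, and Hspa8 (0.21 ± 0.062) and the heat-inducible Hspa1b (0.50 ± 0.16) rose with calls lost without code 32B (adjusted p = 0.117 and 0.22).

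The chaperone lists had larger medians in the high-Lcn2 codes than in the low-Lcn2 codes, and no test of this difference was run. The numbers called cannot be compared, because the 2 fits called 4.7% and 0.23% of all genes. The low-Lcn2 codes also hold only 2 cue libraries. The reticulum list had a median of 0.034 in the low-Lcn2 codes, with 0 called higher, and of 0.38 in the high-Lcn2 codes, with 8 called higher. The cytosolic list had a median of 0.076 in the low-Lcn2 codes, with 0 called, and of 0.28 in the high-Lcn2 codes, with 11 called. Summed over the reticulum list, the cue libraries with high Lcn2 had 2422, 3142, 2234 and 2277 CPM and those with low Lcn2 had 2044 and 1829 CPM. The home cage libraries with high Lcn2 had 1793 and 1962 CPM, the lowest and the highest of that group. With the class of Lcn2 (above 2 CPM or not) as a covariate, 10 genes of the cytosolic list and 5 of the reticulum list were called higher.

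**Figure D3:**
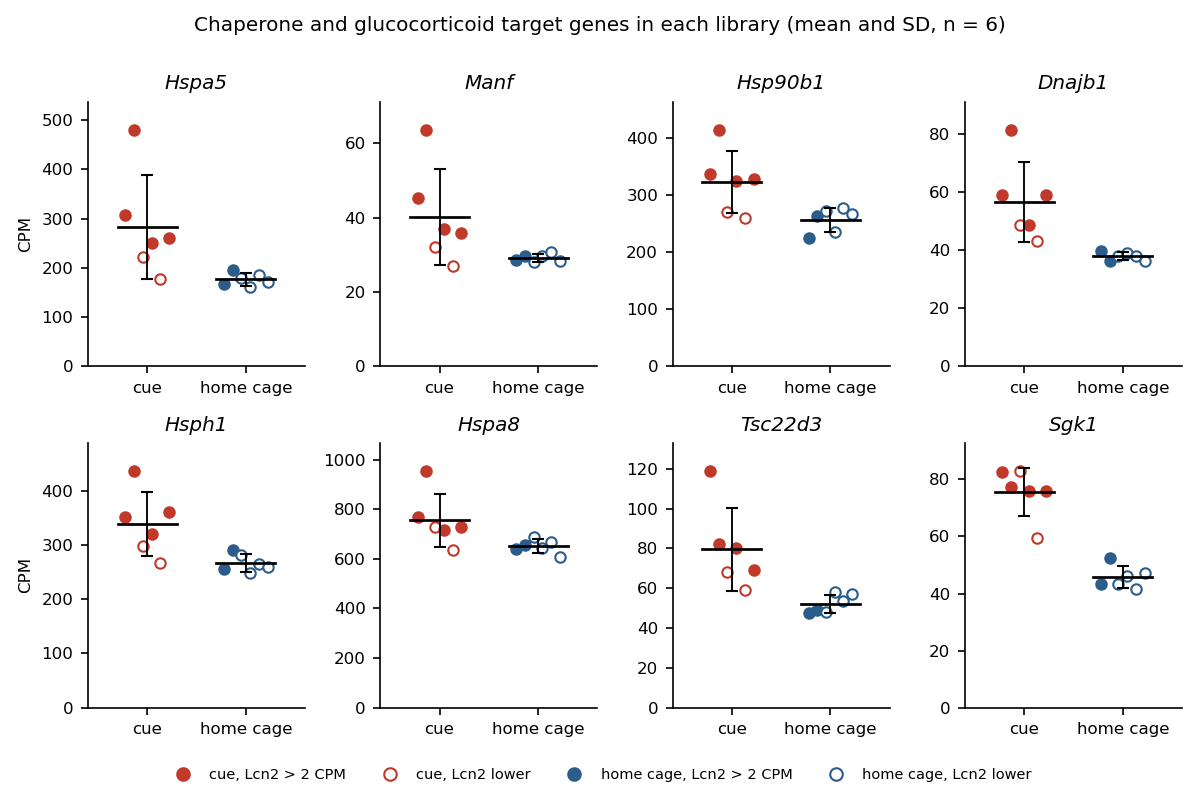
Each panel plots one chaperone or glucocorticoid target gene in CPM (vertical axis, from 0) in the 6 cue and the 6 home cage libraries; filled points are codes with Lcn2 above 2 CPM, bars are mean and SD. For Hspa5, Manf and Tsc22d3 the cue points spread widely with a filled point highest, while for Sgk1 open and filled cue points both lie above the home cage.

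**Figure D4:**
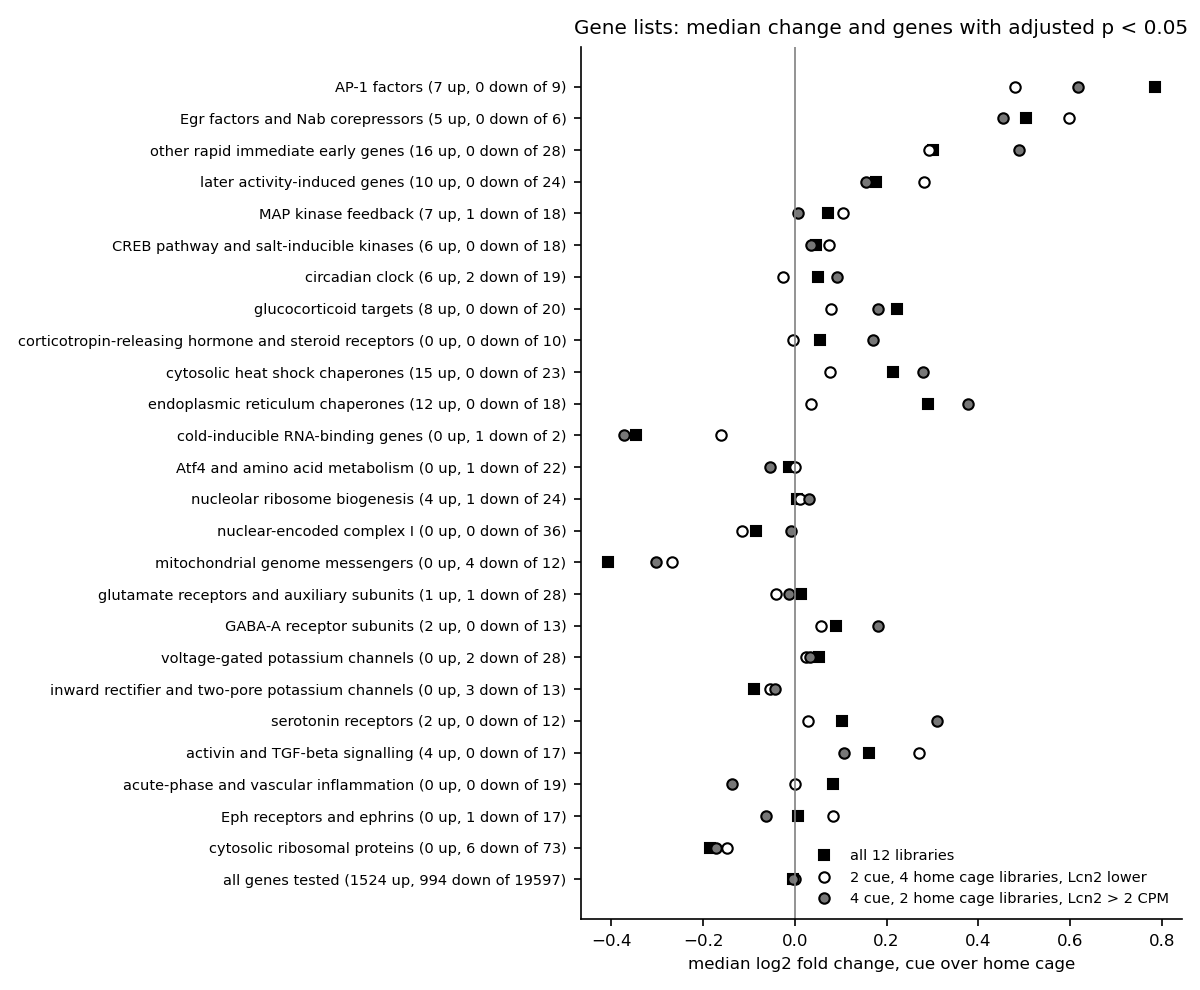
For each gene list (vertical axis, with the members called higher and lower of those tested) the horizontal axis gives the median log2 fold change of cue over home cage, over all 12 libraries (squares), the low-Lcn2 codes (open circles) and the high-Lcn2 codes (grey circles). The lists of AP-1, Egr and other rapid genes lie at 0.29 or above in each, while the reticulum chaperones lie at 0.03 in the low-Lcn2 codes and 0.38 in the high-Lcn2 codes.

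No rapid immediate early gene was called lower. Cirbp, a cold-inducible RNA-binding protein gene, measured 33.7, 29.6, 44.4, 41.2, 55.7 and 37.1 CPM in the cue libraries, against 64.1, 57.5, 67.4, 73.6, 65 and 64.7 CPM in the home cage libraries. The groups did not overlap, and Cirbp fell by 0.69 on the log2 scale (SE 0.10, adjusted p = 3.11e-05), with -0.43 in the low-Lcn2 codes and -0.78 in the high-Lcn2 codes. Timm44, part of the mitochondrial import motor, had the smallest p of the named falls: it measured 49.7, 44.3, 45.7, 50.1, 53.8 and 50.8 CPM in cue libraries, against 62, 60, 60.8, 63.7, 60.1 and 59.2 CPM in home cage libraries (-0.31 ± 0.044 SE, adjusted p = 1.01e-05). The membrane protein gene Marveld1 (-0.46 ± 0.071), the splicing factor genes Sugp1 (-0.28 ± 0.045) and Prpf40b (-0.24 ± 0.044), the Tak1 kinase partner Tab1 (-0.29 ± 0.050), Tarbp2, a partner of Dicer (-0.32 ± 0.057), and the chromatin factor gene Phf12 (-0.20 ± 0.035) fell without overlap. So did Abhd14b (-0.36 ± 0.056), Whamm (-0.32 ± 0.050), Abtb1 (-0.31 ± 0.051), Fndc10 (-0.45 ± 0.077), Ccdc17 (-0.59 ± 0.10) and the noncoding Snhg20 (-0.40 ± 0.069) and Lncppara (-0.72 ± 0.12), the last of which holds members of the let-7 microRNA family. Among the largest falls, Lrrc29 (-0.96 ± 0.18), Fbxo5 (-0.87 ± 0.16), Nanos2 (-0.79 ± 0.18) and Acr (-0.75 ± 0.14) averaged 1.94, 0.806, 0.731 and 1.06 CPM in cue libraries.

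Some changes are uncertain because genes share reads. The largest fall, mt-Atp8 (-2.99 ± 0.95), overlaps mt-Atp6; its cue libraries had 0.674 to 1.59 CPM and its home cage libraries 0.789 to 18.7 CPM, which overlap, and its call was lost without the cue library of code 32B (adjusted p = 0.0823). Mir6982 (1.38 ± 0.23) lies inside Camk2a on the same strand, and Zglp1 (1.09 ± 0.19) overlaps another gene model. Tm6sf2 (1.21 ± 0.17) and Apold1, an endothelial early response gene (1.06 ± 0.14), were other large rises outside the lists, and Spty2d1 (0.58 ± 0.049) and Tob2 (0.50 ± 0.055) were among the rises with the smallest p.

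Higher and lower genes differed in size of the gene. Genes called higher spanned a median of 33.5 kb with 5893 bases of exons, genes called lower 8.91 kb with 3076 bases, and all genes tested 18.3 kb with 3688 bases. Their levels differed too, with medians of 34.15 CPM (higher), 17.85 CPM (lower) and 12.69 CPM (all tested). The part of abundance in the differences of size and gene type was not tested. Antisense and lincRNA genes made up 1.51% of genes called higher, 10.6% of those called lower and 7.14% of all tested. Cytosolic ribosomal protein genes, which are short, had a median of -0.18 (-0.19 and -0.19 with the other scalings tried), with 6 of 73 called lower beside 5.07% of all genes. Of 12 messengers of the mitochondrial genome, 4 were called lower: mt-Atp8, mt-Nd1, mt-Nd4 (-0.29 ± 0.10) and mt-Nd5 (-0.33 ± 0.10). The complex I gene mt-Nd1 had 7361 to 9663 CPM in cue libraries and 9905 to 13300 CPM in home cage libraries (-0.37 ± 0.11). Without the cue library of code 32B, 2 ribosomal and 0 mitochondrial genes were called lower. Over all genes that fit called 864 higher and 530 lower. Of 36 nuclear-encoded complex I genes 0 were called. Among other growth and stress lists, 4 of 24 nucleolar genes were higher and 1 lower, and 1 gene of the Atf4 list, Slc7a5 (-0.14 ± 0.048), was lower. Without code 32B these counts were 0 and 1 for the nucleolar list and 0 for the Atf4 list. The falls of mitochondrial messengers go with the lower mitochondrial share of counts given above, and the part of RNA quality was not tested.

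Receptor and channel genes were called in both directions, beside 7.78% higher and 5.07% lower over all genes. Among 28 glutamate receptor genes Grm7 (0.14 ± 0.045) was higher and Grik5 (-0.16 ± 0.048) lower, and among 28 voltage-gated potassium channels Kcns1 (-0.29 ± 0.091) and Kcnh3 (-0.18 ± 0.058) were lower. Of 13 inward rectifier and related channels 3 were lower: Kcnj2 (-0.60 ± 0.17), Kcnj4 (-0.26 ± 0.077) and Kcnk2 (-0.19 ± 0.056). The GABA-A receptor subunit genes Gabrb2 (0.45 ± 0.15) and Gabrb1 (0.21 ± 0.061) and the serotonin receptor genes Htr4 (0.48 ± 0.12) and Htr1a (0.25 ± 0.069) rose, out of 13 and 12 tested, and the ephrin gene Efna1 (-0.36 ± 0.098) fell, out of 17. In the low-Lcn2 codes, where 0.23% of all genes were called, no member of these lists was, which carries little information at that share. Without the cue library of code 32B the calls kept were those of Htr4 and Efna1, the others named here being lost. Over all genes that fit called 864 higher and 530 lower.

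Markers of cell types were checked in the same fit. None was called among markers of dentate granule cells, CA1, CA2 and CA3 pyramidal cells, oligodendrocytes, astrocytes, microglia, pericytes, choroid plexus, meninges, blood, neocortex, and amygdala and striatum, nor among 19 acute-phase genes tested, of which 4 were lower in the high-Lcn2 codes alone and 2 with the class of Lcn2 as a covariate. Single markers were higher for interneurons (1 of 14, Dlx6os1, 0.39 ± 0.064), oligodendrocyte precursors (1 of 8, Gpr17, 0.45 ± 0.10) and ependyma (1 of 7, Foxj1, 0.51 ± 0.15). For thalamus 1 of 9 was lower (Ramp3, -0.53 ± 0.18). Over all genes 7.78% were called higher and 5.07% lower, so single calls in lists of this size carry little information. The calls of Foxj1 and Ramp3 were lost without the cue library of code 32B (adjusted p = 0.0771 and 0.122). Choroid plexus markers summed to 1287 CPM in the cue library of code 34C and 32.4 to 62.5 CPM in the other cue libraries, against 34.4 to 678 CPM in the home cage libraries. Oligodendrocyte markers summed to 8799 CPM in cue code 32C and 3568 to 4544 CPM in the other cue libraries. Home cage libraries had 3449 to 6995 CPM, and the median log2 fold change was 0.40 (low-Lcn2 codes) and -0.48 (high-Lcn2 codes). Dentate markers summed to 536 CPM in home cage code 35B and 274 to 410 CPM in all other libraries. Code 32C is among the 2 cue libraries with low Lcn2, and 35B among the 2 home cage libraries with high Lcn2. Of 13 endothelial markers 3 were lower, Sox18 (-0.67 ± 0.14), Sox17 (-0.48 ± 0.11) and Slco1a4 (-0.21 ± 0.069). In the high-Lcn2 codes alone 10 were lower, where 427 of 20332 genes were. In the low-Lcn2 codes 0 were lower, but that fit called no gene lower at all, so its 0 cannot be set against the 10. The endothelial median was -0.45 in the high-Lcn2 codes and 0.0029 in the low-Lcn2 codes. The call of Slco1a4 was lost without code 32B (adjusted p = 0.126). The endothelial sum was 328 to 383 CPM in cue libraries, against 491 and 489.6 CPM in the home cage libraries of codes 35A and 35B and 310.5 to 350.5 CPM in the other home cage libraries. In bulk tissue, fewer cells of a type and less RNA per cell cannot be told apart.

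The response was set beside those of the ventral libraries labelled 6NJ and the dorsal libraries labelled 6J, from the same test. In the ventral hippocampus labelled 6NJ the cue group had 6.97% of genes called higher and 5.89% lower than its home cage group, and in the dorsal hippocampus labelled 6J 3.81% and 2.08%. Of the 1524 higher genes here, 795 were also called higher under 6NJ (52.2% of these and 58.2% of those), and of the 994 lower genes 443 were (44.6% and 38.4%). With the dorsal libraries of the same codes, 542 higher genes (35.6% and 72.5%) and 209 lower genes (21.0% and 51.1%) were shared. No gene was called in opposite directions. Tests of the differences called no gene: 0 of 19597 between substrain labels (0% of genes, and 2.75% at an unadjusted p under 0.05) and 0 of 20255 between regions (0%, and 3.87%), and DESeq2 also called 0 in each. The intervals of single genes were not narrow: the Egr2 response differed from that under 6NJ by -0.027 (95% interval -0.45 to 0.40) and from that of the dorsal hippocampus by -0.36 (-0.90 to 0.18). The Nr4a1 response was 0.78 here, 1.04 under 6NJ and 1.23 in the dorsal hippocampus, and its difference between regions was -0.46 (95% interval -0.69 to -0.23, adjusted p = 0.963).

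**Figure D5:**
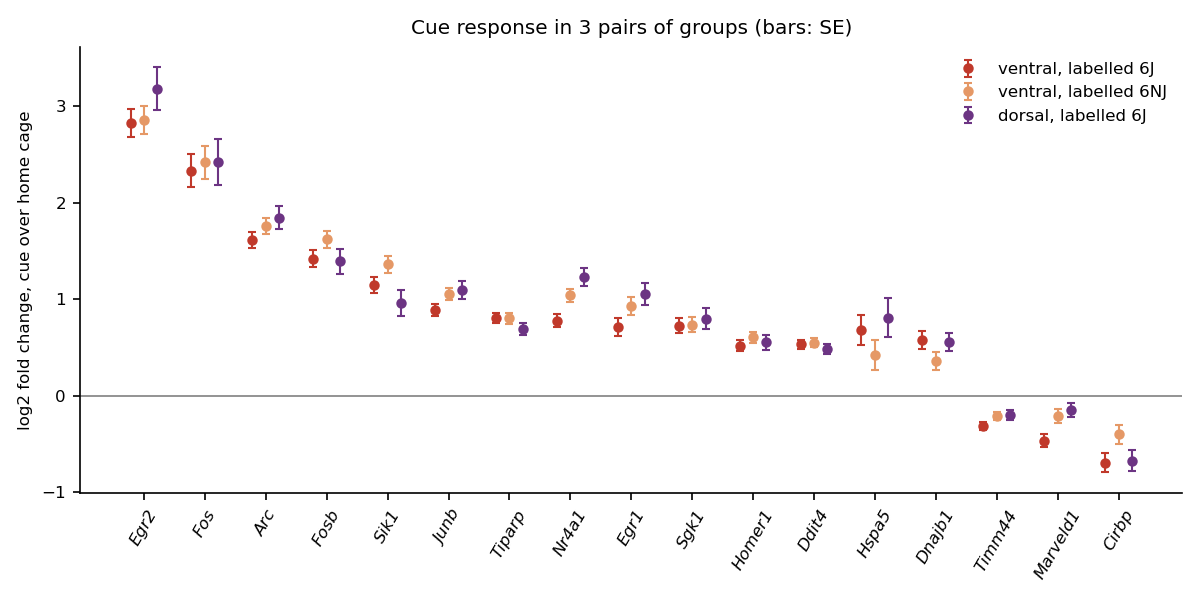
The log2 fold change of cue over home cage (vertical axis) with its SE is plotted for 17 genes in the ventral hippocampus labelled 6J, the ventral hippocampus labelled 6NJ and the dorsal hippocampus labelled 6J, each from 6 cue and 6 home cage libraries. The 3 values share a sign for every gene shown, and no gene differed after adjustment over all genes.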

How the data were processed

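RNA libraries were stranded and poly(A)-selected and were read as single ends of 75 bp, per the labels' protocols. The deposited gene table holds raw read counts for 55401 genes, and the submitters' processing notes name HISAT2, featureCounts and GRCm38 (with FastQC, kallisto and DESeq2). A second deposited table holds estimated counts of 119414 transcripts, which were rounded to whole numbers before testing. Tool versions, filters and the strand setting of counting: not given in the sources used here; reads of genes overlapping on opposite strands may therefore not be separable.

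The test was edgeR 4.0.16 (R 4.3.3) with TMM scaling, filterByExpr by group, a robust glmQLFit and the quasi-likelihood F-test, with a mean for each group and no covariate. All 36 ventral libraries entered the fit, or 72 for the difference between regions. Benjamini-Hochberg adjusted p-values run over all features tested, at 0.05, and the SE is the size of the log2 fold change over the square root of F. The 12 libraries hold at least 30330382 counts each, so counting error matters mainly at low CPM. Alternatives used RLE scaling, other filters, DESeq2 1.42.0, limma-voom 3.58.1, covariates, fewer libraries and codes as blocks; the fit on high-Lcn2 codes was added after seeing the data. The fits were tested on simulated counts.

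The comparison, its 44 lists (689 genes, 676 tested) and its naming rule were chosen with earlier results of these data known. Genes were named if among the 15 with the smallest p or the 10 with the largest change in either direction, when called, averaging at least 1 CPM and carrying an assigned name, or if on a list. Library codes are shared by the 2 regions, but the labels do not say that a code is a mouse; deviations of the 12 codes correlated between regions by -0.0313 to 0.341. Libraries of a group differed by more than sampling noise (chi-square per degree of freedom of at least 4.51 over 30 pairs), so each was counted once.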

Additional observations from a re-analysis of the deposited data

Results flagged for a closer look

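In 224 groups of 6 libraries of the genes examined, the highest or lowest library was far from the other 5 in 17, 10 of them cue and 7 home cage, where chance gives about 1 in 20. Code 34A held the highest cue value of Nr4a1 (93.6 CPM), Btg2 (35.95 CPM), Nfkbia (26.3 CPM), Bambi (5.66 CPM) and Npas4 (20.9 CPM). Code 34B held the lowest cue value of Ddit4 (47.5 CPM), Egr4 (20.7 CPM) and Sgk1 (59.5 CPM). Code 32B held the highest cue value of Nfil3 (12.3 CPM) and the lowest of mt-Nd5 (6270 CPM). In the home cage, the highest value was that of code 36C for 1700016P03Rik (3.005 CPM), of code 36A for Egr4 (15.9 CPM), of code 35A for Prpf40b (94.55 CPM), and of code 35B for Skil (76.97 CPM), Pde4b (75.65 CPM) and Hspa1b (6.72 CPM). Code 35B held the lowest home cage value of Snhg20 (15.3 CPM).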

How the results depend on the processing

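The number of genes called, 2518, was 2926 with DESeq2, 2499 with RLE scaling and 2390 with the 12 libraries alone. It was 1606 with the class of Lcn2 (above 2 CPM or not) as a covariate, 1542 without a low-count filter, 956 with the high-Lcn2 codes alone and 47 with the low-Lcn2 codes alone, and 588, 1632, 1607 and 617 without code numbers 32, 34, 35 and 36; these fits use fewer libraries, a covariate or more genes, and the causes were not otherwise tested. Leaving out 1 library gave 1394 (code 32B) to 3067 (code 35B) genes. For transcripts, 1334 were called, 3074 with DESeq2, 688 without a filter and 23 with the low-Lcn2 codes, and 503 to 1575 with 1 library left out. Differences between substrain labels and between regions stayed at 0 under every alternative run, including the code as a replicate block for regions (0), a pairing the labels do not state. No cue library is paired with a home cage library by code. All cue codes carry the numbers 32 or 34 and all home cage codes 35 or 36. An effect of the code number therefore cannot be told apart from that of the cue, and the p-values take the libraries of a group as independent. Over 112 genes and all alternatives, 2479 of 2910 values kept direction and side of the threshold, 416 lost the call, 5 gained it and 10 changed sign. The most genes lost the call with the low-Lcn2 codes alone (76), without code numbers 32 (41) and 36 (39) and with the high-Lcn2 codes alone (38). With 1 library left out, 28 genes lost it without code 32B and 22 without code 36A. The changes of sign were in genes that were not called: Fkbp5 (-0.06283 with the covariate, -0.04002 and -0.03646 without code numbers 32 and 36, -0.1391 with the low-Lcn2 codes), Bdnf (-0.01906 without code number 35) and Npas4 (-0.04096 without code number 34, -0.2217 with the low-Lcn2 codes, -0.02532 to 0.2223 with 1 library left out).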
